A study of Mus musculus with 10 samples.

Results

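The cytosolic ribosomal protein genes encode the proteins that, together with ribosomal RNA, form the large and the small subunit of the ribosome in the cytoplasm. They were taken as the protein-coding genes of the mouse annotation whose symbol is *Rpl* or *Rps* followed by a digit, together with *Rplp0*, *Rplp1*, *Rplp2* and *Rpsa*, less the genes named next. Of 21866 protein-coding genes, 78 were kept, 46 of the large subunit and 32 of the small subunit. Left out were 10 *Rps6k* kinase genes, 6 genes with a pseudogene symbol and 5 whose symbol ends in l. A further 3 genes whose symbols would pass were dropped by judgement, *Rpl7l1* and *Rpl22l1* as like genes and *Rps19bp1*, which encodes a protein that binds RPS19, and with them the set holds 81. The rule reads symbols and no measured value.

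H3K4me3, a histone mark of active promoters, was profiled by CUT&Tag in naive extraembryonic endoderm (nEnd), a culture derived from mouse embryonic stem cells. All libraries came from nEnd of the OCT4-mCherry reporter line without treatment, and the cells were sorted by the reporter and by an antibody to PDGFRA coupled to APC. The 3 sorted populations were Oct4+ nEnd (4 libraries), double-positive cells with both signals (DP nEnd, 3 libraries) and Pdgfra+ nEnd (3 libraries). They share 1 reporter line, and the study calls the replicates of its profiles biological, and the labels give replicate numbers without saying whether these mark separate cultures or sorts, so that each p-value covers the spread between these libraries only.

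Ribosomal proteins are made in amounts matched to the ribosome, from many genes scattered over the chromosomes that are transcribed at very high rates, and their promoters carry H3K4me3 in nearly every cell type that grows. Many of these genes are short, start transcription within a run of pyrimidines, and hold small nucleolar RNAs (snoRNAs) in their introns, which guide the modification of ribosomal RNA. Many have also left processed pseudogenes, copies of the mRNA that landed elsewhere in the genome without the promoter.

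The start of a pair of members shows what a retrotransposed copy keeps and what it loses. *Rps27* encodes a small subunit protein, and *Rps27rt* is a member without introns that arose from an *Rps27* mRNA. Both sequences are the RefSeq promoters on GRCm38.p6, 80 bases before the start site and 25 from it on, written 5′ to 3′ on the strand of the gene. Capitals mark the run of bases that both genes share.
Rps27 (chr3:90213624-90213728, minus strand): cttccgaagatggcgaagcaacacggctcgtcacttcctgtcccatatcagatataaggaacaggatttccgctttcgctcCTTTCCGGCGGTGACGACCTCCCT
Rps27rt (chr9:114982715-114982819, minus strand): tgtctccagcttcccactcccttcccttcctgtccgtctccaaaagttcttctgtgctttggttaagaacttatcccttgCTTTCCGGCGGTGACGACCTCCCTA
The shared run goes on beyond the printed bases to 38 in all. It begins at the start site of *Rps27rt* and 1 base after that of *Rps27*. Of the 100 bases before the run, aligned without gaps, 21 were identical. The 250 bases upstream of the start held 18 CpG dinucleotides in *Rps27* and 4 in *Rps27rt*, with a GC content of 48.8% and 41.6%.

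Of the 78 members, 58 had an entry in the RefSeq promoter table. A further 3 promoters are printed for the run of pyrimidines that spans the start site, given in capitals. The mRNAs of these genes are known for a 5′ terminal oligopyrimidine tract, to which only the bases from the start site on could belong. *Rpl14* and *Rps21* are members whose signal differed between populations, and *Rpl38*, whose protein is known for its part in the translation of Hox mRNAs, is one where no difference was called.
Rpl14 (chr9:120571437-120571541, plus strand): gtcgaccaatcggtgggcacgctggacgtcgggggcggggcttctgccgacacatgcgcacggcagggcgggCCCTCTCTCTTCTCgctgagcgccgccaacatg
Rps21 (chr2:180257299-180257403, plus strand): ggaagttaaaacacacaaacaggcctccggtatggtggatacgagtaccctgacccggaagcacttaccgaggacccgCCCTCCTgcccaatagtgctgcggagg
Rpl38 (chr11:114668500-114668604, plus strand): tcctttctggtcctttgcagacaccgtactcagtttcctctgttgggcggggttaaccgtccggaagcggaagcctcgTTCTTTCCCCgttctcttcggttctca
The runs were 14, 7 and 10 bases long, of which 8, 2 and 2 lay before the RefSeq start site and 6, 5 and 8 from it on. A run of 5 or more C or T across the start site was present in 31.0% of the member promoters (18 of 58), in 9.02% of 3802 promoters of the genes tested below and in 8.67% of all 16514 promoters of the table. Counted from the start site on, such a run was present in 25.9% (15 of 58), 4.34% and 3.80%. Within the 300 bases of the table, on both strands, CCGGAAG was found in 37.9%, 23.5% and 12.4% of these sets, and CTTTC in 82.8%, 50.3% and 55%. TATAAA was present in 8.62%, 5.18% and 12.9%, AAGATGG in 13.8%, 9.65% and 6.42%, and CACGTG in 8.62%, 10.9% and 8.05%. GGGCGG was in 58.6% of the member promoters, 74.3% of the genes tested and 48.4% of all. The median GC content of the member promoters was 57.3%, below the 64% of the genes tested and close to the 57% of all promoters, while their median ratio of observed to expected CpG was 0.890, against 0.858 and 0.602. These matches are descriptions of sequence and carry no measurement of binding.

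The deposited values are peak lists, 1 for each library, with the total signal and the highest coverage of each peak in units that were not scaled between libraries. A gene was called marked where a peak overlapped the stretch from 1000 bases before to 100 bases after any of its annotated start sites. Each list held between 3477 and 10545 peaks, and the number of reads behind them is not known. In all 10 libraries, 89.3 to 96.7% of the peaks held an annotated start site, against 7.04 to 14.3% after the peaks were moved by 10000 bases. Of 6 epiblast markers, 6 were marked in each Oct4+ library, 5 or 6 in DP and 0 to 2 in Pdgfra+, whereas the 7 primitive endoderm markers were all marked in each DP and Pdgfra+ library and 0 to 5 were marked in Oct4+. Of 15 markers of fibroblasts, the usual feeder cells, at most 3 were marked in any library.

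A pair of features of the libraries touch every result below. The median highest coverage over all peaks was 22 to 59 in the 4 Oct4+ libraries, 107 to 144 in DP and 67 to 143 in Pdgfra+, so that this measure of depth moved with the population, and the part of either in a difference between Oct4+ and the other populations cannot be told apart. Pdgfra+ replicate 2 stood apart by narrow peaks, with a median width at members of 2587 bp against 3642.5 to 7154 bp in the 9 others. The member counts by total signal for Oct4+ are given with and without it. Counts by subunit, shared peak, snoRNA and other gene list are given with it only. Oct4+ replicate 3 had the shortest list. The deposited Oct4+ consensus was rebuilt exactly, 7860 of 7860 regions, from replicates 1, 2 and 4, and comparisons between populations therefore used those 3 libraries with the 3 DP and the 3 Pdgfra+ libraries.

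Nearly every cytosolic ribosomal protein gene was marked in every population. In Oct4+ replicates 1 to 4, 77, 77, 71 and 75 of the 78 members carried a promoter peak. Each DP library marked 77, and Pdgfra+ replicates 1 to 3 marked 77, 62 and 76. The share of members marked was thus 97.9% ± 1.48 in Oct4+ (SD, n = 3, replicates 1, 2 and 4), 98.7% ± 0 in DP (n = 3) and 91.9% ± 10.8 in Pdgfra+ (n = 3), against 18.1 to 50.3% of all protein-coding genes across the libraries. No member had a promoter peak throughout 1 population while lacking it throughout another. Over all genes marked in either population, 3.79% behaved in that way between Oct4+ and Pdgfra+, 4.92% between Oct4+ and DP and 0.235% between DP and Pdgfra+. With 3 libraries against 3, no exact test of presence can pass the threshold, and none was run.

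A total of 61 members were marked in all 10 libraries and 17 were without a peak in at least 1. *Rps27rt* (chr9:114982366-114982739, minus strand) had no promoter peak in any library, whereas *Rps27* was marked in 9 of 10. The nearest peak lay 1270 to 199702 bases from the *Rps27rt* start, within 2500 bases in 4 libraries, and covered the start of the neighbouring gene *Osbpl10* there. *Rps27rt* was thus listed as unmarked in each population, and how reads that match both copies were counted is not given in the sources used here.

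Of the other 16, 10 were without a peak only in Pdgfra+ replicate 2. These were *Rpl23a*, *Rpl24*, *Rpl26*, *Rpl37a*, *Rps3a1*, *Rps9*, *Rps20*, *Rps26*, *Rps27* and *Rpsa*. The members missing from this list tended to be the weaker ones elsewhere. In Oct4+ replicate 1, for example, the median percentile by total signal among all peaks of the library was 64.5 for the 15 members missing in Pdgfra+ replicate 2 that had a peak, and 88.6 for the 62 members present there. In Pdgfra+ replicate 3 the same medians were 28.8 (n = 14) and 66.1 (n = 62). *Rpl23a* was an exception, since its peak lay at the 95.4 to 98.8 percentile in the Oct4+ and DP libraries, at 98.2 in Pdgfra+ replicate 1 and at 31.1 in replicate 3. In these first 8 libraries the peak was 9209 to 11367 bp wide, also held the promoters of *Nek8* and *Tlcd1* and had its summit 5029 to 5305 bases downstream of the *Rpl23a* start, past the end of the gene. In Pdgfra+ replicate 3 it was 3951 bp wide, held no other promoter and had its summit at 274.5 bases.

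The X chromosome holds 4 members, and 3 of them were among the least often marked. *Rps4x*, a small subunit gene, was marked in 6 of 10 libraries, namely Oct4+ 1 and 2, all 3 DP and Pdgfra+ 1. Its percentile among all peaks was 28.2 to 34.2 in the 2 Oct4+ libraries, 1.15 to 15.1 in DP and 31.5 in Pdgfra+ 1. *Rpl36a* was marked in 7 libraries and *Rpl10*, whose protein joins the large subunit late in its assembly, in 8. *Rpl10* lay at the 9.88 to 44.6 percentile in 3 Oct4+ libraries, 4.55 to 22.2 in DP and 2.96 to 38.0 in 2 Pdgfra+ libraries. *Rpl39*, whose protein lines the exit tunnel, was marked in all 10. The autosomal members *Rps24* and *Rpl6* were missing from Oct4+ replicate 3 and Pdgfra+ replicate 2, and *Rpl29* was missing only from Oct4+ replicate 3. In these libraries, all with short or narrow lists, an absent peak is a value under the caller's threshold at an unknown depth.

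**Figure D1:**
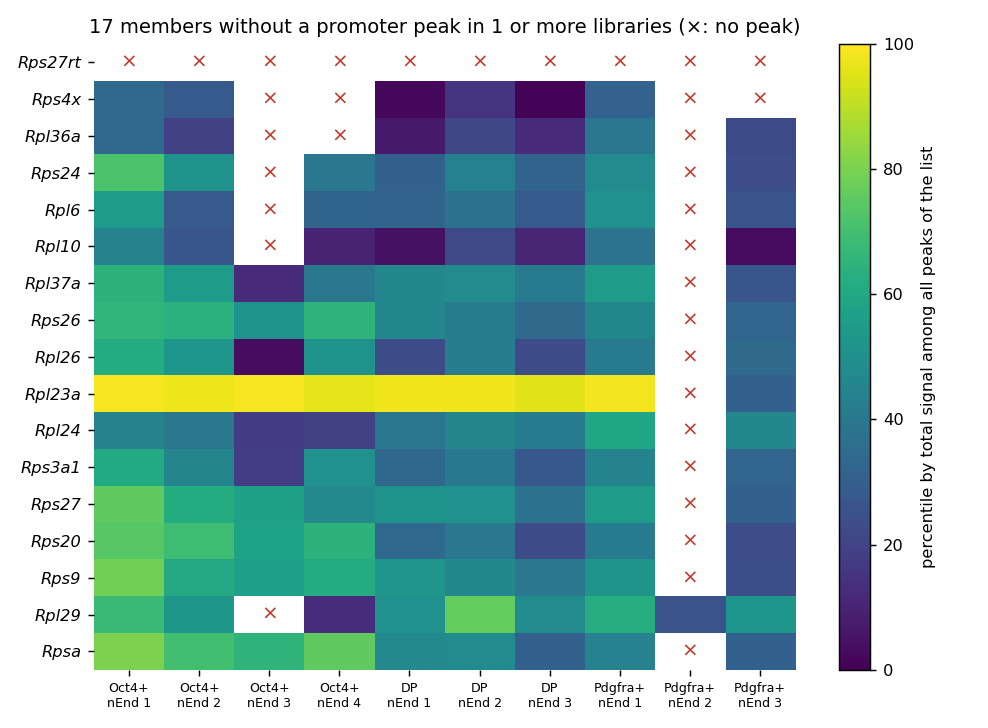
Heat map of the 17 members (rows) without a promoter peak in 1 or more of the 10 libraries (columns). Colour gives the percentile by total signal among all peaks of the library, 0 to 100, and a cross marks no peak; the crosses gather in Pdgfra+ replicate 2 and in *Rps27rt*, which had no peak in any library.

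Member peaks were broad and reached into the gene. The median width of member peaks was 1.17 to 1.76 times that of all peaks of the same library. Seen from the representative start site, the median member peak had its upstream end at -1951 to -749 bases and its downstream end at 1776 to 4924 bases across the 10 libraries, whereas over the 4705 genes tested, of which 3560 were marked in Oct4+ replicate 3, the upstream end lay at -1997 to -959 and the downstream end at 1395 to 2788 bases. The summit, the stretch of highest coverage, had its median 150 to 422 bases downstream of the start in members and 109 to 225 bases in all genes tested. In each library the member summits and downstream ends lay further into the gene than those of all genes tested.

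The mark covered most of the length of these short genes. The median length was 3266 bp for members and 23949 bp for all genes tested. The peak covered a median of 56.3 to 100% of the member gene, and 73.5 to 100% without Pdgfra+ replicate 2, against 6.14 to 13% over all genes tested. From 9 to 58 members per library were covered from start to end, 14.5 to 75.3% of those marked, against 1.72 to 7.50% of all genes tested. A total signal summed over such a peak therefore includes much of the gene body.

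**Figure D2:**
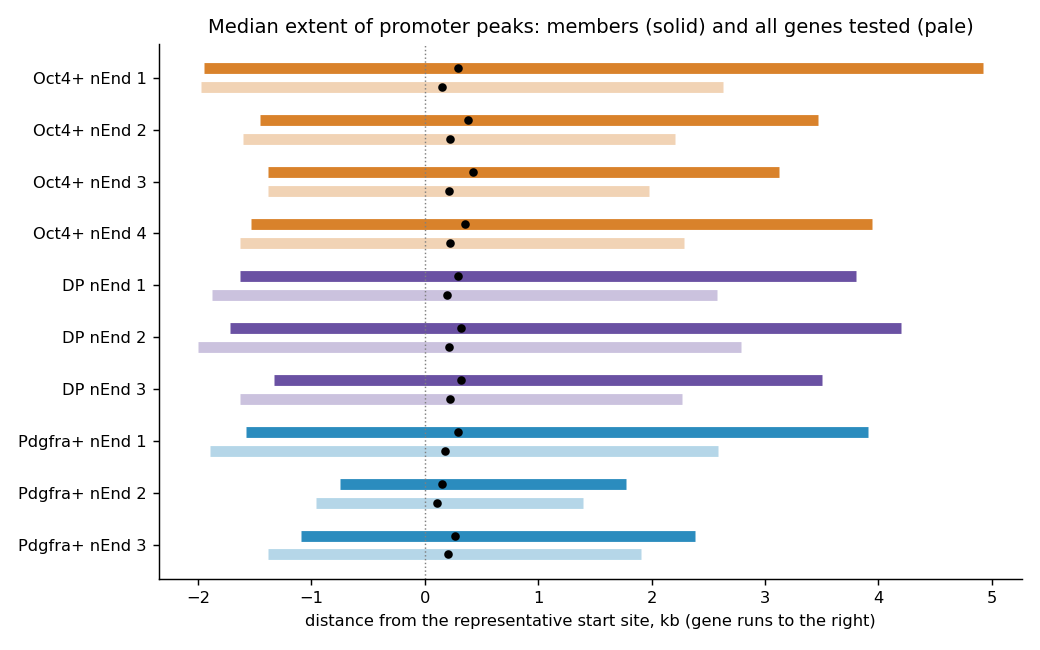
Median extent of promoter peaks in each of the 10 libraries (rows), in kb from the representative start site with the gene running to the right. Solid bars are members, pale bars the 4705 genes tested (the 3560 of them that were marked in Oct4+ replicate 3), and dots the median summit; the member bars end 1776 to 4924 bases downstream of the start, further than the pale bar of the same library in each case.

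To compare populations, the promoter peak of each gene was ranked within its own library among the 4705 genes marked in all 9 libraries compared, on a scale from 0 to 100 that is called the gene percentile here. Of the 78 members, 62 were in this set, and the 16 others had no peak in Pdgfra+ replicate 2. A gene was called where limma gave an adjusted p below 0.05 over all 4705 genes. Differences are between means of 3 libraries each, in percentile points, with the standard error (SE) of the fit.

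Ribosomal protein genes stood higher among marked genes in Oct4+ nEnd than in either other population. By total signal, the median gene percentile of the 62 members was 74.3, 63.3 and 74.2 in Oct4+ replicates 1, 2 and 4. It was 47.3, 50.6 and 47.8 in DP replicates 1 to 3 and 48.6, 30.7 and 41.2 in Pdgfra+ replicates 1 to 3. The Oct4+ medians were above those of each DP and Pdgfra+ library, and the DP and Pdgfra+ medians overlapped.

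**Figure D3:**
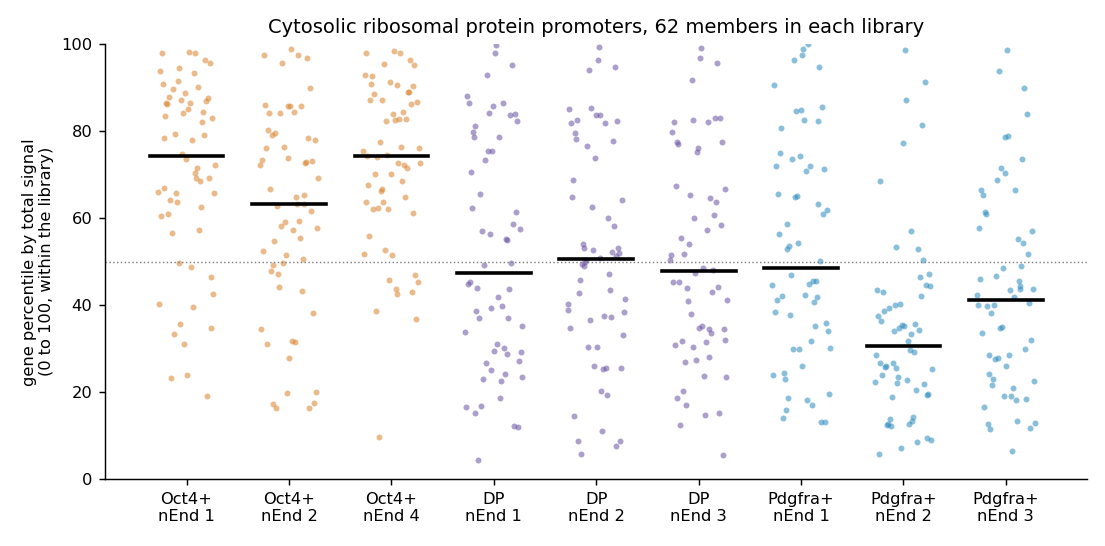
Gene percentile by total signal (0 to 100, vertical axis) of the 62 members in each of the 9 libraries compared. Points are members, black bars the library medians and the dotted line the middle of the scale at 50; the Oct4+ medians of 63.3 to 74.3 lie above those of DP, 47.3 to 50.6, and of Pdgfra+, 30.7 to 48.6.

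Against Pdgfra+, 35 of the 62 members tested were called higher in Oct4+ and 1 was called lower, where 19.6% of all genes tested were called higher and 21.9% lower. The median difference of the members was 23.6 percentile points, against -0.70 over all genes tested, and 59 of 62 members had a difference above 0. Every Oct4+ library lay above every Pdgfra+ library in 38 of the 62 members, where 23.1% of all genes tested did. Among those called higher this held for 34 of 35 members and for 97.2% of all genes, so that it adds nothing to the call. Without Pdgfra+ replicate 2, 75 members and 5065 genes could be tested, and 34 members were called higher and 1 lower, where 18% of all genes were called higher, with a member median of 17.3 points. Of the 35 members, 27 were called higher again and 8 were not, and 7 of the 34 could be tested in this fit only.

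Against DP, 19 of 62 members were called higher in Oct4+ and 1 lower, where 13.9% of all genes tested were called higher and 15.0% lower. The median difference was 16.0 points, against 0.11 over all genes, and 56 members had a difference above 0. Every Oct4+ library lay above every DP library in 33 of the 62 members, where 24.2% of all genes tested did. Among those called higher this held for all 19 members and for 99.4% of all genes. Without Pdgfra+ replicate 2, which enters this comparison through the genes ranked and the shared spread, 32 members were called higher and 1 lower, where 16.2% of all genes were called higher, with a median of 15.1 points. Of the 19 members 18 were called higher again, and 8 of the 32 could be tested in this fit only. Without DP replicate 2, 11 members were called higher and 1 lower, where 9.14% of all genes were called higher. This comparison shares its Oct4+ libraries with the one against Pdgfra+.

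Between DP and Pdgfra+, no member was called by limma, where 0.850% of all genes tested were called in either direction. The median difference was 7.33 points, against -0.74 over all genes, 50 of 62 members were above 0, and 10 of 62 were higher and none lower at an unadjusted p below 0.05, where 5.72% of all genes were higher and 4.04% lower.

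The size of these calls depended on the set in which a gene was ranked. Ranked among all peaks of its library in place of among the 4705 genes, 5 members were called higher and 1 lower in Oct4+ than in Pdgfra+, where 5.10% of all genes were called higher, and the median difference was 15.8 points, against -2.22 over all genes. By the same ranking no member was called higher and 1 lower in Oct4+ than in DP, where 0.510% of all genes were called higher, with a median of 6.20 points against -3.89.

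**Figure D4:**
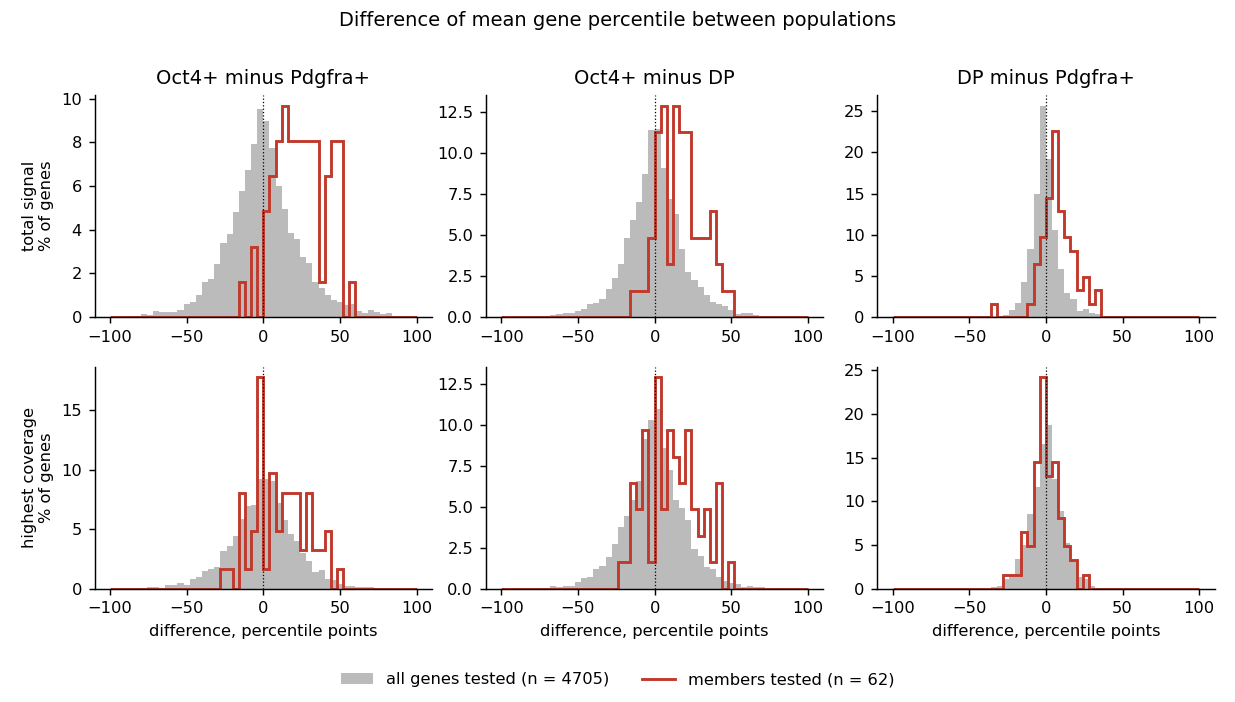
Share of genes (vertical axis, percent) by the difference of mean gene percentile between populations (horizontal axis, percentile points), for all 4705 genes tested (grey) and the 62 members tested (red outline). Upper panels are total signal and lower panels highest coverage; by total signal the members lie to the right of 0 in both comparisons with Oct4+, with medians of 23.6 and 16.0 points, while by highest coverage the shift is smaller, with medians of 11.6 and 10.4.

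The calls were counted by subunit. Against Pdgfra+, 19 of 39 large subunit genes tested and 16 of 23 small subunit genes were called higher in Oct4+, beside 19.6% of all genes tested, with median differences of 22 and 31.2 points. Against DP these were 7 of 39, or 17.9%, which is near the 13.9% of all genes, and 12 of 23, with medians of 14.3 and 20.7 points. The difference between the subunits was not tested.

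The member with the largest difference against Pdgfra+ was *Rpl22* (chr4:152325742-152334071, plus strand), which encodes an RNA-binding protein of the large subunit. Its gene percentile was 87.9, 79.1 and 88.5 in Oct4+ replicates 1, 2 and 4, 38.6, 42.8 and 55.4 in DP and 24.4, 26.0 and 28.5 in Pdgfra+. All 3 populations were separate, with Oct4+ highest and Pdgfra+ lowest. The difference was 58.9 ± 6.19 points against Pdgfra+ (limma adjusted p = 6.56e-05) and 39.6 ± 6.19 against DP (adjusted p = 0.00111). Its peak was 10240, 5812 and 7310 bp wide in these Oct4+ libraries, 6066, 7546 and 6156 bp in DP and 6770, 3109 and 3893 bp in Pdgfra+.

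*Rpl14* (chr9:120571444-120574654, plus strand), a large subunit gene whose pyrimidine run is printed above, lay at gene percentiles of 90.9, 86.0 and 74.4 in Oct4+, 45.3, 64.9 and 30.8 in DP and 41.2, 26.6 and 33.7 in Pdgfra+. It was 49.9 ± 8.80 points higher in Oct4+ than in Pdgfra+ (limma adjusted p = 0.0014) and 36.8 ± 8.80 points higher than in DP (adjusted p = 0.0109). No Oct4+ library overlapped with either other population.

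*Rpl21*, also of the large subunit, had low percentiles outside Oct4+. Its values were 61.0, 47.8 and 62.2 in Oct4+, 15.3, 8.72 and 12.5 in DP and 14.2, 25.7 and 12.7 in Pdgfra+. The difference was 44.8 ± 5.77 points against DP (limma adjusted p = 0.000368) and 39.4 ± 5.77 against Pdgfra+ (adjusted p = 0.000466). DP and Pdgfra+ overlapped.

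*Rpl3* and *Rpl10a* encode proteins close to the peptidyl transferase centre and in the stalk through which the empty tRNA leaves. *Rpl10a* lay at 66.0, 72.1 and 75.5 in Oct4+, 33.8, 38.9 and 50.3 in DP and 44.7, 22.4 and 42.3 in Pdgfra+, and was called higher in Oct4+ against both (limma adjusted p = 0.00443 and 0.0128). *Rpl3* lay at 79.4, 62.7 and 77.5 in Oct4+, 57.1, 53.2 and 43.9 in DP and 53.6, 18.9 and 40.1 in Pdgfra+. It was 35.7 ± 8.95 points higher in Oct4+ than in Pdgfra+ (adjusted p = 0.00959), and against DP its difference of 21.8 ± 8.95 points did not pass (adjusted p = 0.0928).

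The small subunit members *Rps7*, *Rps12* and *Rps13* had a shared pattern, with all Oct4+ libraries above all others. *Rps7* (chr12:28630854-28635953, minus strand) lay at 65.7, 57.8 and 76.2 in Oct4+, 23.5, 38.4 and 23.6 in DP and 19.5, 8.98 and 22.7 in Pdgfra+, a difference of 49.5 ± 6.98 points against Pdgfra+ (limma adjusted p = 0.000366) and 38.1 ± 6.98 against DP (adjusted p = 0.00269). *Rps12* lay at 69.2, 59.4 and 76.4 in Oct4+, 30.2, 25.6 and 34.5 in DP and 31.8, 14.4 and 18.2 in Pdgfra+. *Rps13* was at 71.4, 55.4 and 68.5 in Oct4+, 24.2, 19.5 and 28 in DP and 17, 29.3 and 13.4 in Pdgfra+. Against DP, *Rps12* was 38.2 ± 6.75 and *Rps13* 41.2 ± 6.46 points higher in Oct4+ (adjusted p = 0.00225 and 0.00112).

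*Rps21* (chr2:180257377-180258445, plus strand) and *Rps29* (chr12:69157722-69159186, minus strand) encode small proteins of the small subunit, and *Rps29* is known from Diamond-Blackfan anaemia. *Rps21* lay at 87.0, 78.4 and 86.3 in Oct4+, 58.7, 51.3 and 44.1 in DP and 50.2, 50.4 and 29.98 in Pdgfra+. It was 40.4 ± 6.98 points higher in Oct4+ than in Pdgfra+ (limma adjusted p = 0.00127) and 32.5 ± 6.98 points higher than in DP (adjusted p = 0.00622). *Rps29* was among the 3 members with the lowest mean over the 9 libraries, 21.4, yet its Oct4+ libraries were above all others. It lay at 46.5, 38.2 and 47.0 in Oct4+, 11.9, 8.77 and 5.69 in DP and 13.2, 9.54 and 11.8 in Pdgfra+ (32.4 ± 4.23 points against Pdgfra+, adjusted p = 0.000229).

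*Rps14* and *Rps19* are small subunit genes also known from human bone marrow failure, *Rps14* from the 5q- syndrome and *Rps19* from Diamond-Blackfan anaemia. *Rps14* lay at 90.1, 85.7 and 84.3 in Oct4+, 55.1, 60.1 and 64.6 in DP and 45.5, 35.6 and 55.2 in Pdgfra+. Its difference was 41.3 ± 5.88 points against Pdgfra+ (limma adjusted p = 0.000391) and 26.8 ± 5.88 against DP (adjusted p = 0.00712). *Rps19* lay at 79.2, 72.9 and 88.9 in Oct4+, 49.6, 58.1 and 63.7 in DP and 63.3, 42.1 and 54.3 in Pdgfra+, with differences of 27.1 ± 6.92 (adjusted p = 0.0106) and 23.2 ± 6.92 points (adjusted p = 0.0292). Both members had their lowest Oct4+ library above the highest library of the other populations.

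*Rpsa* (chr9:120127689-120132369, plus strand), which encodes a small subunit protein also known as the laminin receptor, was not in the set of 4705 genes, since it had no peak in Pdgfra+ replicate 2. Among all peaks of each library its percentile was 80.3, 69.9, 65.2 and 75.6 in Oct4+ replicates 1 to 4, 47.0, 48.4 and 30.9 in DP, and 44.3 and 30.9 in Pdgfra+ replicates 1 and 3. In the fit without Pdgfra+ replicate 2 its gene percentile was 49.4 points higher in Oct4+ than in Pdgfra+ (limma adjusted p = 0.00145) and 44.6 points higher than in DP (adjusted p = 0.00165). *Rps20* and *Rps9*, missing from the same library, were 43.5 and 37.0 points higher in Oct4+ than in Pdgfra+ in that fit (adjusted p = 0.000568 and 0.0088).

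The stalk proteins RPLP0, RPLP1 and RPLP2 recruit the elongation factors to the ribosome, and their genes did not share 1 pattern. *Rplp1* lay at 39.7, 31.5 and 42.7 in Oct4+, 18.8, 11.1 and 14.8 in DP and 18.1, 29.7 and 6.58 in Pdgfra+, and was called higher in Oct4+ against both (limma adjusted p = 0.0254 and 0.0178). *Rplp0* lay at 78.0, 84.3 and 90.5 in Oct4+, 78.7, 20.2 and 23.8 in DP and 70.8, 12.8 and 19.1 in Pdgfra+. Its difference against Pdgfra+ was 50.04 ± 17.3 points (adjusted p = 0.0394), and without Pdgfra+ replicate 2 it was 36.4 points and not called (adjusted p = 0.141). In 5 of the 10 libraries the *Rplp0* peak also covered the promoter of *Gcn1l1*.

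*Rplp2* was the only stalk gene whose Oct4+ and Pdgfra+ libraries overlapped. It lay at 93.3, 64.8 and 72.6 in Oct4+, 22.7, 25.4 and 31.7 in DP and 99.9, 57.0 and 20.9 in Pdgfra+. Its peak in Pdgfra+ replicate 1 was 32487 bp wide, against 2122 and 2520 bp in replicates 2 and 3. In 2 of the 10 libraries the *Rplp2* peak also held the promoter of at least 1 other protein-coding gene, so that its signal there was not of *Rplp2* alone. Against DP it was 50.3 ± 16.0 points higher in Oct4+ (limma adjusted p = 0.0384), and without Pdgfra+ replicate 2 the adjusted p was 0.051.

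*Rpl13a*, a large subunit gene, is one of the members whose peak also overlapped another promoter. It lay at 97.9, 97.5 and 97.8 in Oct4+, 86.5, 81.7 and 82.0 in DP and 72.0, 5.83 and 66.5 in Pdgfra+. Pdgfra+ replicate 2 was far below the other libraries. The difference was 49.6 ± 13.5 points against Pdgfra+ (limma adjusted p = 0.0143) and 26.6 points without that library (adjusted p = 0.000114).

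**Figure D5:**
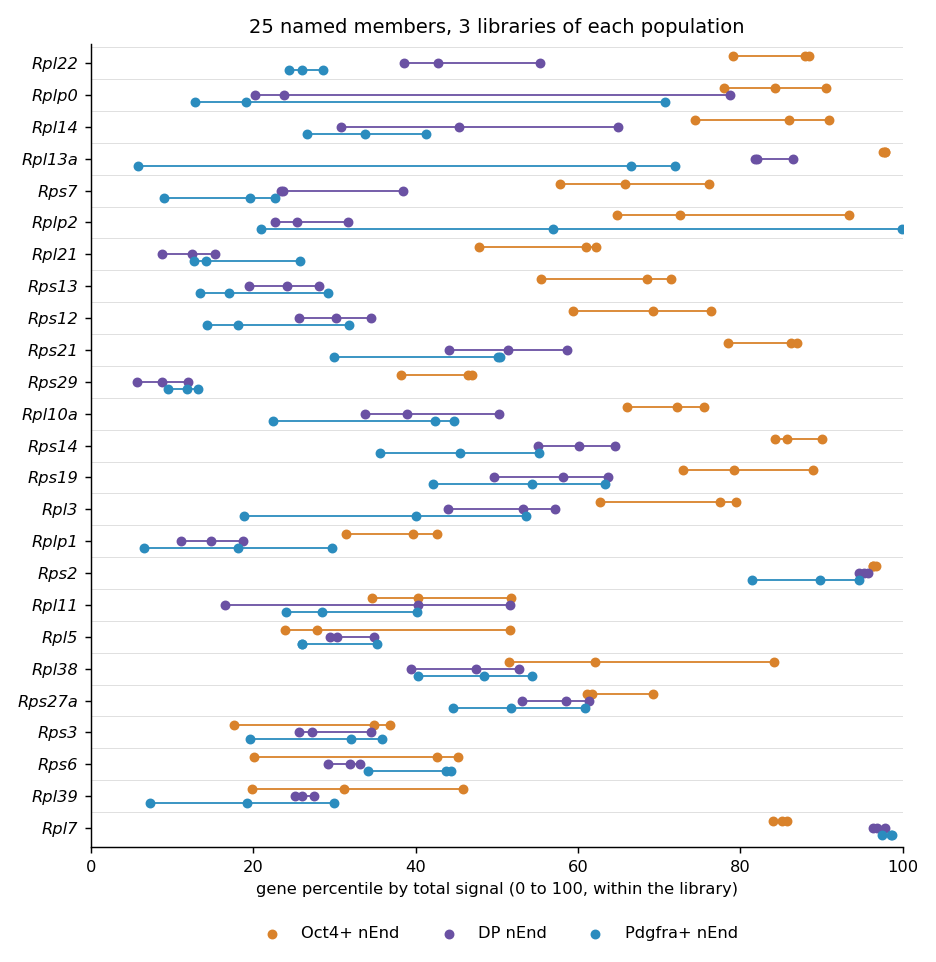
Gene percentile by total signal (horizontal axis, 0 to 100) of 25 named members in 3 libraries of each population. Points are libraries and lines span the range of a population; Oct4+ lies to the right of DP and Pdgfra+ in *Rpl22*, *Rpl14*, *Rps7* and *Rps13* among others, the populations overlap in *Rps3* and *Rps6*, and *Rpl7* runs the other way.

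Not every member was higher in Oct4+. *Rpl5* and *Rpl11* encode the proteins that bind 5S ribosomal RNA and, outside the ribosome, the p53 regulator MDM2. *Rpl5* lay at 23.9, 27.8 and 51.6 in Oct4+, 29.4, 30.3 and 34.8 in DP and 26.1, 35.3 and 26.0 in Pdgfra+ (5.35 ± 7.23 points against Pdgfra+, limma adjusted p = 0.582). *Rpl11* lay at 40.3, 34.7 and 51.8, at 16.5, 40.3 and 51.6, and at 24.1, 28.5 and 40.2 in these populations (11.3 ± 9 points, adjusted p = 0.336). In both genes the populations overlapped.

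*Rps3*, at the channel through which the mRNA enters, and *Rps6*, the substrate of the S6 kinases, had differences near 0. *Rps3* lay at 34.9, 17.6 and 36.8 in Oct4+, 27.3, 25.7 and 34.5 in DP and 35.9, 19.6 and 32.0 in Pdgfra+ (0.616 ± 6.63 points against Pdgfra+, limma adjusted p = 0.946). *Rps6* lay at 42.6, 20.1 and 45.3, at 29.1, 33.1 and 31.9, and at 34.1, 44.3 and 43.7 (-4.68 ± 7.09 points, adjusted p = 0.623). With these errors, differences of more than several points in either direction could go uncalled. That of *Rps27a* below, 11.6 ± 5.97 points against Pdgfra+, did not pass (limma adjusted p = 0.143).

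*Rpl38*, printed above, lay at 84.2, 51.5 and 62.1 in Oct4+, 39.4, 52.7 and 47.5 in DP and 54.3, 40.3 and 48.5 in Pdgfra+, a difference of 18.2 ± 8.49 points against Pdgfra+ that did not pass (limma adjusted p = 0.109). *Rps27a*, which encodes ubiquitin fused to a small subunit protein, lay at 69.2, 61.7 and 61.1, at 61.4, 53.1 and 58.5, and at 60.9, 44.6 and 51.7 (adjusted p = 0.143). The X-linked *Rpl39* lay at 31.1, 19.9 and 45.8, at 25.2, 26.0 and 27.4, and at 29.9, 7.24 and 19.2 (adjusted p = 0.165). In all 3 genes the Oct4+ mean was the highest, by less than the test could call.

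*Rpl7* was the 1 member called lower in Oct4+, and its peak was not its own. It lay at 85.1, 85.8 and 84.0 in Oct4+, 97.9, 96.4 and 96.8 in DP and 97.5, 98.6 and 98.5 in Pdgfra+, a difference of -13.2 ± 1.40 points against Pdgfra+ (limma adjusted p = 6.62e-05) and -12.1 ± 1.40 against DP (adjusted p = 0.000195). *Rpl7* starts at position 16104662 of chromosome 1 on the minus strand and *Rdh10*, a retinol dehydrogenase gene, starts at 16105774 on the plus strand. The same peak covered both starts in all 10 libraries, so that their values were identical and signal of the 2 genes could not be separated.

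Peaks that also held another promoter were common. In 33 members the peak overlapped the promoter of another protein-coding gene in at least 1 of the 9 libraries. The other 45 had no such overlap, among them *Rps27rt*, which had no peak. Of the 31 tested without such an overlap, 22 were called higher in Oct4+ than in Pdgfra+ and 16 higher than in DP, with no member lower and median differences of 29.0 and 21.8 points. Of the 31 tested with an overlap, 13 and 3 were called higher and 1 lower in each comparison, with medians of 22 and 9.24 points. Over all genes tested 19.6% and 13.9% were called higher, and whether a peak reaches another promoter depends on its width. The difference between the groups of members was not tested.

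An annotated snoRNA lay inside 30 members and in 48 there was none. Of 24 tested with a snoRNA, 16 were called higher in Oct4+ than in Pdgfra+ and 6 higher than in DP, with median differences of 25.1 and 15.8 points. Of 38 tested without, 19 and 13 were called higher, with medians of 22.1 and 16.6 points. Over all genes tested 19.6% and 13.9% were called higher.

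The level at which members stood also differed between them. Averaged over the 9 libraries, the lowest were *Rpl27* at 16.7, *Rps23* at 18.6 and *Rps29* at 21.4, and the highest *Rpl7a* at 95.4, *Rps2* at 93.4 and *Rpl7* at 93.4. *Rps2*, a small subunit gene, lay at 96.4, 96.7 and 96.3 in Oct4+, 95.3, 94.6 and 95.7 in DP and 94.6, 81.4 and 89.9 in Pdgfra+, and its difference of 7.82 ± 2.74 points against Pdgfra+ was called (limma adjusted p = 0.0417) but not without Pdgfra+ replicate 2 (adjusted p = 0.0861). *Rpl7a*, a large subunit gene with 3 snoRNAs inside, lay at 98, 98.9 and 98.5 in Oct4+, 99.8, 99.3 and 99.1 in DP and 98.8, 87.1 and 78.9 in Pdgfra+ (adjusted p = 0.0518), in a peak that held the promoter of at least 1 other gene in all 10 libraries. *Rps23*, whose protein sits at the decoding site, lay at 19.2, 16.3 and 43.0, at 12.3, 7.66 and 15.4, and at 13.1, 22 and 18.4, and was not called (adjusted p = 0.335). Near the top of the scale a gene has little room to move.

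By highest coverage, which is not summed over a peak but can lie at another promoter that a wide peak takes in, the members stood lower in each library but Pdgfra+ replicate 2, and the median differences between populations were smaller. Their median gene percentile was 37.1, 33.3 and 54.5 in Oct4+ replicates 1, 2 and 4, 26.3, 27.7 and 35.1 in DP and 26.2, 33.2 and 27.7 in Pdgfra+. Oct4+ replicate 4 was well above the other libraries, and Oct4+ replicate 2 lay within the range of DP and close to Pdgfra+ replicate 2. Against Pdgfra+, 6 of 62 members were called higher and 1 lower, where 4.97% of all genes tested were called higher and 5.55% lower, with a median difference of 11.6 points against 0.50 over all genes. Against DP, 5 were called higher and 1 lower, where 2.95% were called higher and 3.0% lower, with a median of 10.4 points against 0.19, and no member was called after leaving out any 1 of the DP libraries. Without Pdgfra+ replicate 1, 1 member was called higher and 1 lower in each of these comparisons, where 2.23% of all genes were called higher against Pdgfra+ and 1.76% against DP. Between DP and Pdgfra+ limma called no member, where 0% of all genes tested were called, with a median of -0.65 points, and 1 of 62 members was higher at an unadjusted p below 0.05, where 1.40% of all genes were.

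Among the members called higher by this measure against Pdgfra+ were *Rps21*, *Rpl13a*, *Rpl7a*, *Rps29* and *Rpl28*. The *Rpl7a* peak also held the promoters of *Med22*, *Surf1* and *Surf2* in each Oct4+ library, and its summit lay 5548 and 5623.5 bases downstream of the *Rpl7a* start in replicates 1 and 4, past the end of the gene, and at -359 in replicate 2. In Pdgfra+ replicates 2 and 3 the peak was 3759 and 3980 bp wide, held *Med22* alone of these and had its summit at -359 and 232 bases, so that these values were not all taken at *Rpl7a*. The *Rpl28* peak also held *Tmem238* in 6 libraries, and those of *Rps21* and *Rps29* held no other promoter in any library. *Rps21* lay at gene percentiles by highest coverage of 87.7, 54.5 and 84.6 in Oct4+, 30.1, 26.0 and 21.6 in DP and 34.3, 41.2 and 6.79 in Pdgfra+. The difference was 48.2 ± 12.6 points against Pdgfra+ (limma adjusted p = 0.0309) and 49.7 ± 12.6 against DP (adjusted p = 0.0378). *Rps29* lay at 52.8, 26.2 and 38.6 in Oct4+, 12.5, 6.05 and 2.58 in DP and 12.7, 6.26 and 9.18 in Pdgfra+ (29.8 ± 7.39 points against Pdgfra+, adjusted p = 0.025). Both were thus higher in Oct4+ by both measures, with no overlap of libraries. Without Pdgfra+ replicate 2, 4 of 75 members were called in this comparison in either direction, or 5.33%, where 8.04% of all genes were. *Rps21* was among them (limma adjusted p = 0.0369). *Rps29*, *Rpl13a*, *Rpl7a* and *Rpl28* were not (limma adjusted p = 0.0854, 0.0748, 0.0633 and 0.0627). Without Pdgfra+ replicate 1 neither *Rps21* nor *Rps29* was called against Pdgfra+, with differences of 51.6 and 31.5 points.

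*Rpl7* was called lower in Oct4+ by highest coverage too, by -23.9 ± 4.46 points against Pdgfra+ (limma adjusted p = 0.00726), in the peak it shares with *Rdh10*. *Rpl22* and *Rpl14*, with large differences by total signal, were not among the members called by highest coverage. *Rpl22* lay at 70.6, 63.5 and 87.6 in Oct4+, 8.95, 32.1 and 50.9 in DP and 23.4, 51.9 and 25.9 in Pdgfra+ by this measure, and *Rpl14* at 86.2, 60.9 and 47.8, at 26.9, 40.8 and 23.7, and at 31.1, 45.0 and 35.8.

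Peak width gave no call among the members in any comparison. Width was taken on the log2 scale relative to the median of the 4705 genes of the library, and the members' median was 0.65, 0.43 and 0.49 in Oct4+ replicates 1, 2 and 4, 0.33, 0.39 and 0.33 in DP and 0.46, 0.10 and 0.15 in Pdgfra+. Members were thus wider than the median gene in every library, and Pdgfra+ replicates 2 and 3 were lowest. The median log2 difference was 0.32 for Oct4+ against Pdgfra+, 0.15 for Oct4+ against DP and 0.14 for DP against Pdgfra+, where 7.63%, 0.616% and 0.298% of all genes tested were called by limma in either direction. At an unadjusted p below 0.05, 16, 5 and 10 of the 62 members were wider in the first population and none narrower, where 13.5%, 7.65% and 5.63% of all genes tested were wider and 9.39%, 6.21% and 2.95% narrower.

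The strongest peaks of each list were also counted, which uses the same total signal as the ranking above, cut at a set number of peaks. The 9 lists held 4887 to 10545 peaks, so that the cut kept a larger part of a short list. With each list cut to its 3477 strongest peaks by total signal, the length of the shortest, 86.8% ± 6.58 of the members were marked in Oct4+ (SD, n = 3), 70.1% ± 1.96 in DP (n = 3) and 55.6% ± 12.3 in Pdgfra+ (n = 3). Over the 11483 genes marked in at least 1 full list the same shares were 35.8%, 37.5% and 36.8%. The share was thus larger for members than for all marked genes in each population, and largest in Oct4+, where the lowest library held 62 of 78 members against 33 to 52 in the Pdgfra+ libraries.

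With lists of 4887 peaks, the shortest of the 9, 7 of 75 members were marked in every Oct4+ library and in no Pdgfra+ library (9.33%), where 6.58% of all genes marked were. These were *Rpl26*, *Rps3a1*, *Rps9*, *Rps20*, *Rps24*, *Rps26* and *Rpsa*, and 4 of them, *Rpl26*, *Rps3a1*, *Rps20* and *Rps24*, were also in no DP library (5.33%), where 5.05% of all genes were. *Rps9* was in every DP library and in no Pdgfra+ library, as 1 of 69 members (1.45%), where 1.17% of all genes were. The last 2 shares are near those of all genes. No member showed the reverse in any pair, where 7.80%, 7.69% and 0.584% of all genes did. In the whole lists all 7 members carried a peak in each DP library and in Pdgfra+ replicates 1 and 3, and none in Pdgfra+ replicate 2.

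Other gene lists of the translation machinery were read on the same scale. Ribosomal proteins outside the symbol rule include that of *Fau*, made as a fusion with a ubiquitin-like part, and RACK1, a scaffold on the small subunit. Against Pdgfra+, *Rack1* was 21.9 ± 5.38 points higher in Oct4+ by total signal (limma adjusted p = 0.00882), while *Fau* had a difference of 8.83 ± 3.43 points (adjusted p = 0.0614). Neither was called against DP. Of the 7 genes named as like genes, 3 were tested and none was called in either comparison by limma, nor was any of the 3 lists below called between DP and Pdgfra+.

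Of 78 mitochondrial ribosomal protein genes, 37 were tested, and 7 were called higher and 2 lower in Oct4+ than in Pdgfra+, with a median difference of 4.16 points. Against DP these were 4 and 2, with a median of 1.57. Of 64 genes of translation factors, 41 were tested, with 12 higher and 3 lower against Pdgfra+ and 10 higher and 1 lower against DP, and medians of 6.30 and 7.41 points. Against Pdgfra+, the share called higher was 18.9% for the mitochondrial ribosomal proteins and 29.3% for the translation factors, beside 56.5% of the cytosolic ribosomal protein genes tested and 19.6% of all genes. Against DP the shares were 10.8% and 24.4%, beside 30.6% and 13.9%, and the difference between these lists was not tested.

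Of 25 ribosome assembly genes, 14 were tested, with 9 higher and 1 lower in Oct4+ than in Pdgfra+ and 8 higher and none lower than in DP, beside 19.6% higher and 21.9% lower and 13.9% higher and 15.0% lower of all genes, and median differences of 18.7 and 11 points. The shares called higher were thus 64.3% and 57.1%, above the 56.5% and 30.6% of the cytosolic ribosomal protein genes, and these differences were not tested. *Nop56*, a core protein of box C/D snoRNPs, was 37.9 ± 6.89 points higher in Oct4+ than in Pdgfra+ (limma adjusted p = 0.00168), and *Npm1*, the nucleolar chaperone nucleophosmin, 47.1 ± 6.59 points (adjusted p = 0.000349). *Gar1*, of the box H/ACA snoRNPs, was the gene called lower, by -17.8 ± 3.91 points (adjusted p = 0.00488).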

How the data were processed

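Per the labels and the study's methods, the authors sorted nEnd cells, made H3K4me3 CUT&Tag libraries, used bcl2fastq 2.19.1, Bowtie2, SAMtools 1.12, deepTools and bedtools 2.26.0 with the mm10 build, and called peaks in each library with SEACR (stringent mode) against IgG. The deposited lists give the total signal of each peak, its highest coverage and the position of that maximum, unscaled between libraries. How reads with several matches were treated is not given in the sources used here, so that pseudogene copies may take or add signal, and the read depth is unknown. Consensus lists held positions only and served to choose the Oct4+ libraries.

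Peaks were joined to protein-coding transcripts of GENCODE M21 (54374 start sites, minimum overlap 1 bp), and the peak with the highest total signal was kept for each gene. Percentiles, and log2 widths centred on the library median, were compared with limma 3.58.1 (eBayes with trend, Benjamini-Hochberg over 4705 genes) in R 4.3.3, with 9 libraries and no covariate. Python 3.11.15, numpy 2.4.6, pandas 2.3.3 and scipy 1.17.1 were used for the rest. The scripts were tested on simulated data. The members, lists and tests were chosen with earlier results of these data known. Genes were named by rule: up to 5 members with the largest called and non-overlapping difference for each measure and pair, the 12 members unmarked in the largest number of libraries, the 3 highest and 3 lowest by mean level, and a set of members with known roles. *Rpl28*, *Rps9*, *Rps20*, *Rps27*, *Rpl29*, *Nop56*, *Npm1* and *Gar1* were named after their values were seen. Promoter sequences are from RefSeq on GRCm38.p6. Some results that named further genes are not reported here.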

Additional observations from a re-analysis of the deposited data

How the results depend on the processing

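Of the alternatives run, 824 were for single members, and no direction was reversed in them. The 225 for counts and shares had no direction to reverse, since a count adds higher and lower calls. The balance of the calls did change when genes were ranked among all peaks. By total signal, 19 higher and 1 lower in Oct4+ against DP became 0 and 1. By highest coverage, 6 higher and 1 lower in Oct4+ against Pdgfra+ became 0 and 1. Ranking among all peaks of a library left 6 members called by total signal in Oct4+ against Pdgfra+ and 1 against DP, where 11.8% and 3.42% of all genes were called, and 1 and 0 by highest coverage, where 1.62% and 0.170% were. Centred log2 values left 0 members called by highest coverage in Oct4+ against DP, where 4.97% of all genes were. By width, 1 member was called in Oct4+ against Pdgfra+ with all 4 Oct4+ libraries and with equal numbers of peaks, where 8.43% and 8.501% of all genes were. Equal numbers of peaks, 4887 per list, gave 7, 4 and 1 members marked in every library of the first population and in none of the second. These were for Oct4+ against Pdgfra+, Oct4+ against DP and DP against Pdgfra+, or 9.33%, 5.33% and 1.45% of members. Over all genes marked the shares were 6.58%, 5.05% and 1.17%, so that the last 2 member shares are near them. With 3477 peaks per list, 86.8%, 70.1% and 55.6% of members were marked in Oct4+, DP and Pdgfra+. Over the genes marked in at least 1 full list these were 35.8%, 37.5% and 36.8%. The share of members marked in the full DP lists was 99.6% with a window of 2500 bp and 97.9% with an overlap of at least 50% of the promoter. It was 98.4% with the 3 genes that the letter of the rule would keep. Of 44 calls for single members, 37 were lost by ranking among all peaks, 16 with the replicate block and 4 to 15 when 1 library was left out. The cause of these changes was not tested.

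With 1 library left out in turn, 62 members were tested, or 75 without Pdgfra+ replicate 2. By total signal 25 to 39 were called in Oct4+ against Pdgfra+, where 35.5 to 40.8% of all genes were called in either direction. In Oct4+ against DP 12 (without DP replicate 2, where 19.3% of all genes were called) to 33 (without Pdgfra+ replicate 2, 33.4%) were called, and 0 to 3 (without Pdgfra+ replicate 1, 1.64%) in DP against Pdgfra+. By highest coverage these ranges were 2 (without Pdgfra+ replicate 1, 5.12%) to 9 (without Oct4+ replicate 1, 13.03%) and 0 to 6 (without Oct4+ replicate 1 or 2, 8.97% and 4.499%), with 0 after leaving out any 1 of the DP libraries, where 0.850 to 1.13% of all genes were called, and 0 in DP against Pdgfra+. By width they were 0 to 1 in Oct4+ against Pdgfra+ and 0 otherwise. Members marked in every library of one population and in none of the other were 0 to 1 in DP against Pdgfra+ and 0 in the other pairs. With all libraries, 0.235% of all genes behaved in that way in DP against Pdgfra+, and the share with 1 library left out is not given here.

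With the replicate number as a replicate block, total signal gave 25 and 14 members called of 62 in Oct4+ against Pdgfra+ and DP, or 40.3% and 22.6%, where 32.96% and 21.8% of all genes were called in either direction. Of these, 24 and 13 were higher, where 16.0% and 10.9% of all genes were. Highest coverage gave 1 and 1, both lower, and no member was called higher, where 3.57% and 2.42% of all genes were called in either direction. *Rps21* and *Rps29* were thus not called by highest coverage with the block. The numbers were not shown to pair the libraries: over 7 pairs of libraries with the same number and 3 measures, the correlation of deviations was over 0.1 in 9 of 21 and ran from -0.12 to 0.28. By total signal, 4 of 6 DP and Pdgfra+ libraries correlated best with their own number.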
